A study of Mus musculus with 24 samples.

Results

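Full-length CAMTA1 was compared with an empty vector in sub-confluent NIH 3T3 cells, a mouse fibroblast line. The comparison used every library whose label names full-length CAMTA1 or the sub-confluent empty vector, which gave 6 of the 24 libraries, 3 of each kind. Cells of the first group (CAMTA1) carried full-length CAMTA1 with 2 Flag tags in the retroviral vector pBabeNeo, and cells of the control group (EVsub) carried that vector without an insert. Both kinds of line were pools of cells selected with G418 and were made in triplicate. Both groups were sub-confluent when harvested, CAMTA1 by the description of the culture and the control by its label. The other 6 groups were a second empty vector (EV) held at confluence for 48 h, TAZ-CAMTA1 (a fusion of the start of TAZ to the end of CAMTA1), TAZ4SA and YAP5SA (TAZ and YAP with serines changed to alanine), YAP-TFE3 and TFE3. They enter below only where a level or an effect is set beside that of CAMTA1. The growth state of the TAZ-CAMTA1 cells is described ambiguously in the sources used here, and a difference between CAMTA1 and any group other than EVsub cannot be told apart from growth state.

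CAMTA1 is a calmodulin-binding transcription activator. It has a CG-1 domain that binds DNA, a TIG domain, ankyrin repeats and IQ motifs that bind calmodulin, and it is best known from the brain. CG-1 domains of this family have been described as binding DNA with the core letters CGCG. In epithelioid haemangioendothelioma the end of CAMTA1 is joined to TAZ, and the full-length protein serves as the reference for what CAMTA1 itself does to transcription.

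Gene counts summed to 25706916, 19823573 and 30132586 in CAMTA1 replicates 1 to 3, and to 20198078, 28020955 and 22363950 in EVsub replicates 1 to 3. The EVsub libraries were more spread than the CAMTA1 libraries, with a median standard deviation per gene of 0.224 against 0.139 on the log2 scale of CPM, the counts scaled to a common library size. On the first principal component of the 6 libraries, which held 44.7% of the variance, CAMTA1 replicates 1 to 3 had scores of -34.5, -21.85 and -12.28. EVsub replicate 1 scored 2.316, close to CAMTA1, while EVsub replicates 2 and 3 stood apart at 40.67 and 25.64. EVsub replicate 1 was also the control library nearest to CAMTA1 at 122 of the 185 genes called higher and at 101 of the 128 genes called lower.

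Camta1 itself was the first gene looked at, since the labels name it. Camta1 (ENSMUSG00000014592) had 9.231, 11.23 and 9.431 CPM in the CAMTA1 libraries and 5.603, 3.953 and 4.734 CPM in EVsub. The CAMTA1 libraries were the highest of all 24, and the groups did not overlap. Camta1 was 2.09-fold higher (log2 fold change 1.07, SE 0.18, n = 3 and 3, edgeR quasi-likelihood adjusted p = 0.0019, Benjamini-Hochberg over all tested genes). In these bulk libraries a difference in the number of cells that express a gene and a difference in its RNA per cell cannot be told apart. In the edgeR fit of the 6 libraries alone the adjusted p was 0.0888 at a log2 fold change of 1.08, and it was 8.14e-07 with DESeq2 and at most 0.0285 without any 1 library, the last without EVsub replicate 2. Reads of the introduced copy and of the gene of the cell were not separated, and the species of the introduced cDNA is not given in the sources used here. In TAZ-CAMTA1, whose construct holds the end of CAMTA1, Camta1 had 4.35 to 5.02 CPM, against 4.82 to 4.87 CPM in EV. Camta1 is thus a limited check of the labels, and whether reads of the constructs were counted at it was not tested.

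The cells were fibroblasts by their markers in both groups. All 10 fibroblast markers on the list were tested, and their summed level was 20506, 26238 and 28758 CPM in CAMTA1 and 24603, 38153 and 32684 CPM in EVsub. Of these markers 8 had a negative and 2 a positive log2 fold change, and Postn alone was called, as lower. The median was -0.38, and -0.19 without EVsub replicate 2. Fn1, which encodes fibronectin, was the most abundant at a mean of 10272 CPM. The epithelial markers summed to at most 0.3092 CPM in any of the 6 libraries, with Epcam, Krt18 and Esrp1 at 0 in all of them. The endothelial markers reached 2.019 CPM with Tie1 at 0, the skeletal muscle markers 0.8567 CPM with Myod1, Myog, Myf5, Actc1 and Ckm at 0, and the haematopoietic markers 5.238 CPM with Adgre1, Cd3e and Tyrobp among those at 0. Adipocyte markers lay between 10.66 and 13.64 CPM, most of it from Lipe, with Adipoq at 0. Cartilage and bone markers summed to between 51.31 and 98.9 CPM, most of it from Sox9, with Acan and Ibsp at 0. The neuron markers summed to 9.412, 4.902 and 4.452 CPM in CAMTA1 and to 1.366, 1.282 and 1.691 CPM in EVsub, most of it from Tubb3, while Rbfox3 and Elavl4 were at 0 in all 6 libraries.

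A gene was tested if it had a mean of at least 5 counts over the 24 libraries, and called if its adjusted p was under 0.05 in edgeR's quasi-likelihood test. CAMTA1 differed from EVsub at 313 of 14361 tested genes (2.18%), of which 185 were higher (1.29%) and 128 were lower (0.891%). The median log2 fold change was 1.02 among the genes called higher and -0.93 among those called lower, against -0.03 over all tested genes, and 151 of the 313 changed at least 2-fold. The 3 libraries of the groups did not overlap at 297 of the called genes, and at 3420 of all tested genes (23.8%). Protein-coding genes made up 301 of the 313. Exons of 106 called genes overlap those of another gene, and because the handling of strand in the counting is not given, reads of such a pair may have been shared.

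**Figure D1:**
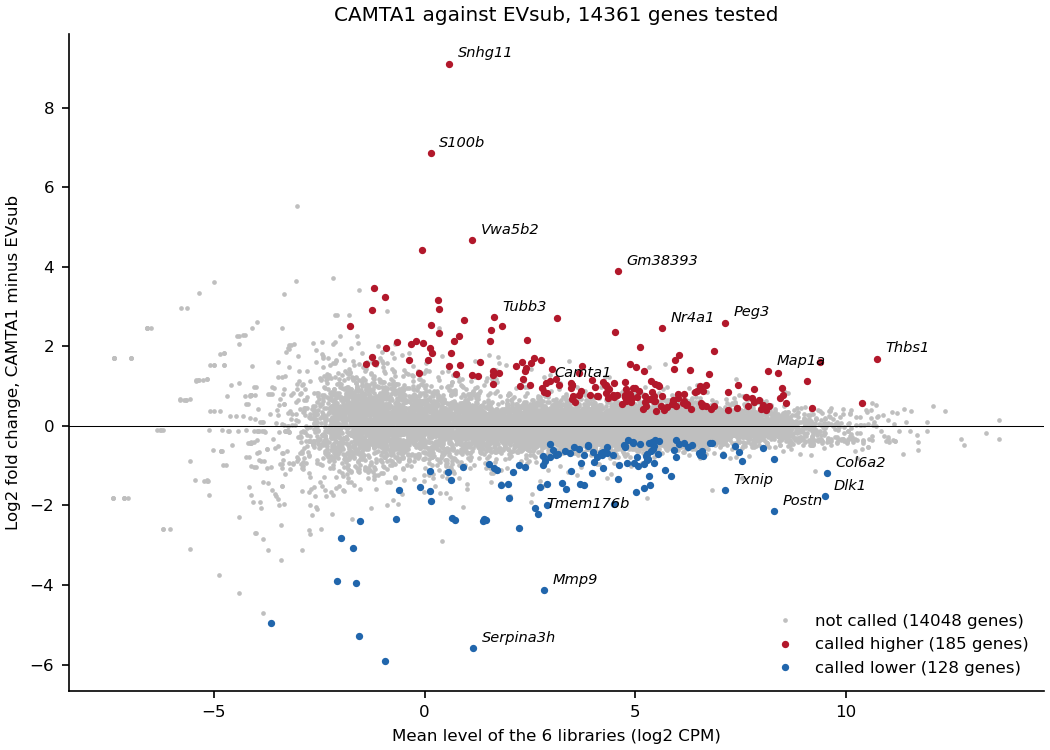
Each point is 1 of the 14361 tested genes, with the mean level of the 6 libraries on the x axis (log2 CPM) and the log2 fold change of CAMTA1 minus EVsub on the y axis; red points were called higher (185), blue points lower (128) and grey points not called (14048). The largest fitted values, those of Snhg11 and S100b, belong to genes at or near 0 counts in EVsub and are not measured folds, and 33 tested genes at 0 in all 6 libraries are not drawn.

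The number of called genes depended on single libraries. It was 710 without EVsub replicate 1, 72 without EVsub replicate 2, 192 without EVsub replicate 3, 118 without CAMTA1 replicate 1, 95 without CAMTA1 replicate 2 and 330 without CAMTA1 replicate 3. Each of the 313 genes kept its direction in each of these 6 fits. That was nearly fixed in advance, since the groups did not overlap at 297 of them. Of the 313 genes 57 were called in all 6 fits, 40 higher and 17 lower. The fit of the 6 libraries alone, with no other group to share the estimate of the spread, called 22 genes, and DESeq2 called 636. A set of 20 genes was called in the 24-library fit, in the fit of the 6 libraries, with DESeq2 and with the replicate number as a block. Those 20 genes, 19 higher and 1 lower, are the source of the genes described first.

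**Figure D2:**
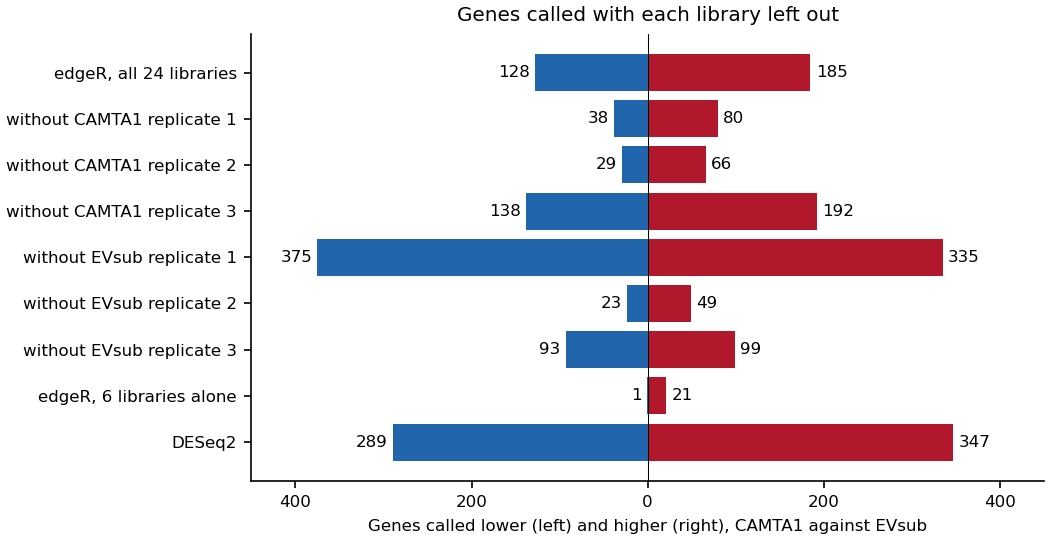
Bars give the number of genes called higher (red, right) and lower (blue, left) in CAMTA1 against EVsub with all 24 libraries in the fit, with 1 of the 6 libraries left out, with the 6 libraries alone, and with DESeq2. With 1 library left out the count ran from 49 higher and 23 lower without EVsub replicate 2 to 335 higher and 375 lower without EVsub replicate 1. The fit of the 6 libraries alone called the fewest genes.

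Imprinted genes, of which cells express the copy from 1 parent, were among the large rises. Peg3 (ENSMUSG00000002265), a paternally expressed zinc finger gene on chromosome 7, had 299.7, 205.2 and 219.6 CPM in CAMTA1 and 42.36, 29.49 and 47.47 CPM in EVsub. Every CAMTA1 library exceeded every EVsub library at least several times over, and the CAMTA1 libraries were also the highest of all 24. Peg3 was 6.08-fold higher (log2 fold change 2.60, SE 0.19, n = 3 and 3, edgeR quasi-likelihood adjusted p = 3.82e-08), and no left-out library ended the call. TFE3 was the only other group with a comparable level, at a mean of 183.3 CPM, and all remaining groups had means between 35.29 CPM (YAP-TFE3) and 50.33 CPM (YAP5SA).

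The second such gene was the record Gm38393 (ENSMUSG00000000948, chromosome 7, 59974149 to 60005064). Its exons overlap those of Snrpn, Snurf and Snhg14 on the same strand, which belong to the imprinted region of the Prader-Willi and Angelman syndromes, so its reads may come from any of them. Gm38393 had 60.47, 37.5 and 36.64 CPM in CAMTA1 and 3.462, 2.671 and 2.959 CPM in EVsub. The lowest CAMTA1 library lay far above the highest EVsub library, and the record was 14.8-fold higher (log2 fold change 3.89, SE 0.29, edgeR quasi-likelihood adjusted p = 3.82e-08). Ndn, an imprinted gene of the same region, had 42.08, 39.64 and 36.79 CPM in CAMTA1 against 38.44, 44.87 and 43.16 CPM in EVsub and was not called. Ube3a, the ubiquitin ligase of that region, had a log2 fold change of 0.42 and was not called either.

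Of the 16 tested genes on the list of imprinted genes 2 were called higher and 1 lower, with a median log2 fold change of 0.29, and DESeq2 called 3 higher and 3 lower. Zrsr1 was the other rise, with 44.35, 36.98 and 31.57 CPM against 19.63, 16.1 and 29.21 CPM and a log2 fold change of 0.80. It was not called without CAMTA1 replicate 1 or 2 or without EVsub replicate 1 or 2, where the edgeR adjusted p was 0.18, 0.0959, 0.0628 and 0.232. Dlk1, which encodes a Notch-like ligand that holds back fat cell formation, went the other way. It had 149.4, 395.4 and 454.1 CPM in CAMTA1 and 740.9, 1546 and 1094 CPM in EVsub, so that the groups did not overlap and CAMTA1 replicate 1 was lowest. Dlk1 was lower by 1.76 on the log2 scale (log2 fold change -1.76, SE 0.36, edgeR quasi-likelihood adjusted p = 0.0105), with an edgeR adjusted p of 0.0545 without CAMTA1 replicate 1 and 0.0982 without EVsub replicate 2. Meg3, transcribed beside Dlk1, had a log2 fold change of 0.28 and was not called.

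Tubb3 (ENSMUSG00000062380), the beta-tubulin of neurons, had 8.763, 4.331 and 3.339 CPM in CAMTA1 and 0.8199, 0.8191 and 0.8031 CPM in EVsub. The EVsub libraries were nearly equal and all below the lowest CAMTA1 library. Tubb3 was 6.69-fold higher (log2 fold change 2.74, SE 0.32, edgeR quasi-likelihood adjusted p = 2.23e-05). Map1a, a microtubule-associated protein of axons and dendrites, was already abundant, with 147.4, 160.9 and 167.5 CPM in EVsub, and had 480.3, 380.6 and 371.5 CPM in CAMTA1 (log2 fold change 1.37, SE 0.12, edgeR quasi-likelihood adjusted p = 4.72e-07). Per kilobase of exon Map1a remained at a higher level than Tubb3 in both groups.

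Lynx1, a GPI-anchored protein that dampens nicotinic acetylcholine receptors, had 105.7, 80.86 and 80.73 CPM in CAMTA1 and 30.43, 30.13 and 39.14 CPM in EVsub. Here too the groups were well apart, at a log2 fold change of 1.42. S100b, a calcium-binding protein of glia, was counted 92, 44 and 39 times in CAMTA1 and 0, 0 and 1 times in EVsub. The ratio of these counts after scaling was 159, with a 95% counting interval from 28.2 to 6320, so that its size is poorly fixed while its direction was shared by all 3 libraries. Vwa5b2, a little-studied gene with a von Willebrand factor A domain, had 6.599, 3.331 and 2.783 CPM against 0.1366, 0.2493 and 0.08454 CPM (log2 fold change 4.67, SE 0.50, edgeR quasi-likelihood adjusted p = 6.62e-06). Its exons overlap those of Alg3 on the opposite strand. Alg3 had 15.9, 12.56 and 10.54 CPM in CAMTA1 and 13.44, 20.3 and 10.02 CPM in EVsub, with overlapping groups.

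The list of neuronal genes as a whole was mostly silent. Of its 20 genes 6 were tested, 2 of these were called higher and 0 lower at a median of 0.45 (0.29 without CAMTA1 replicate 3), and Rbfox3, Nefm, Elavl4, Gad1 and Chga were at 0 in all 6 libraries. Besides Tubb3 the called member was Map2, with 3.029, 2.094 and 2.01 CPM against 0.8199, 1.104 and 0.9299 CPM (log2 fold change 1.31, SE 0.30). The edgeR adjusted p of Map2 was 0.0212, and it lay between 0.0549 and 0.137 without CAMTA1 replicate 1, CAMTA1 replicate 2, EVsub replicate 2 or EVsub replicate 3. Scg2 went the other way, with 0.2164, 0.7139 and 1.206 CPM against 0.911, 2.386 and 5.833 CPM, and the groups overlapped. It had a log2 fold change of -2.05 and was not called (edgeR adjusted p = 0.0832). With DESeq2, without a filter on low counts or without EVsub replicate 1, 2 members of the neuronal list were called higher and 1 lower. Among 24 tested ion channel and transporter genes 2 were called higher and 1 lower, with a median of 0.19. Among them were the calcium channel gene Cacna1c (26.97, 31.84 and 26.78 against 16.99, 17.27 and 16.61 CPM) and, lower, Cacna1g (0.4327, 1.333 and 3.463 against 2.551, 9.153 and 7.059 CPM). Both calcium channel calls ended without CAMTA1 replicate 1 or 2 or without EVsub replicate 2 or 3, with an edgeR adjusted p between 0.0683 and 0.133 for Cacna1c and between 0.0816 and 0.260 for Cacna1g.

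Snhg11, chosen after its values were seen, is a non-coding host gene of small nucleolar RNAs that is rich in brain. It was counted 98, 62 and 81 times in the CAMTA1 libraries and 0 times in each EVsub library. Against a floor of 3 counts per library it was at least 24.3-fold higher in CAMTA1, and its mean in every other group was at most 0.06336 CPM.

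A further 11 rises among the 20 genes spanned ion transport, signalling, transcription and matrix. Slc4a4, a sodium bicarbonate cotransporter, had 54.81, 61.35 and 50.46 CPM in CAMTA1 and 17.22, 9.473 and 15.47 CPM in EVsub (log2 fold change 1.99, SE 0.23). Atp1b1, the beta subunit of the sodium pump, had 70.71, 63.39 and 54.64 CPM against 30.43, 28.6 and 33.44 CPM (log2 fold change 1.03, SE 0.18). Ahi1, whose product acts at the primary cilium and is mutated in Joubert syndrome, had 134.2, 86.48 and 84.01 CPM against 29.97, 27.71 and 30.9 CPM (log2 fold change 1.78, SE 0.17). In all 3 genes the groups were separate, with replicate 1 or 2 of CAMTA1 highest.

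Magee1, an X-linked gene of the MAGE family, had 167.4, 146.5 and 143.7 CPM in CAMTA1 and 58.76, 62.47 and 65.14 CPM in EVsub (log2 fold change 1.30, SE 0.11, edgeR quasi-likelihood adjusted p = 1.3e-07). The transcription factor gene Klf4 had 54.96, 58.02 and 46.57 CPM against 23.78, 23.18 and 14.54 CPM (log2 fold change 1.37, SE 0.17). Map3k5, the stress kinase ASK1, had 2.957, 2.142 and 1.608 CPM against 0.4555, 0.2137 and 0.2113 CPM (log2 fold change 2.93, SE 0.44). The groups did not overlap in any of the 3 genes. The smallest changes of the 20 were those of Tgm2 (transglutaminase 2), Prepl, the collagen gene Col12a1, Slc22a23 and Trim16, with log2 fold changes of 1.00, 0.81, 0.80, 0.75 and 0.73. Slc22a23 and Trim16 were not called without CAMTA1 replicate 2 (edgeR adjusted p = 0.0622 and 0.0597) or without EVsub replicate 2 (0.0512 and 0.0508).

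Tmem176b was the gene of the 20 that fell. It had 1.947, 1.951 and 2.876 CPM in CAMTA1 and 7.06, 11.15 and 13.65 CPM in EVsub, and its CAMTA1 libraries were the lowest of all 24 (log2 fold change -2.22, SE 0.30, edgeR quasi-likelihood adjusted p = 0.000224). Tmem176a lies head to head with it and shares exon sequence on the opposite strand, so the 2 genes are not independent in these counts. It had 0.577, 0.5235 and 1.484 CPM against 3.644, 5.271 and 5.03 CPM (log2 fold change -2.37, SE 0.32). Both encode membrane proteins that are best studied in dendritic cells.

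**Figure D3:**
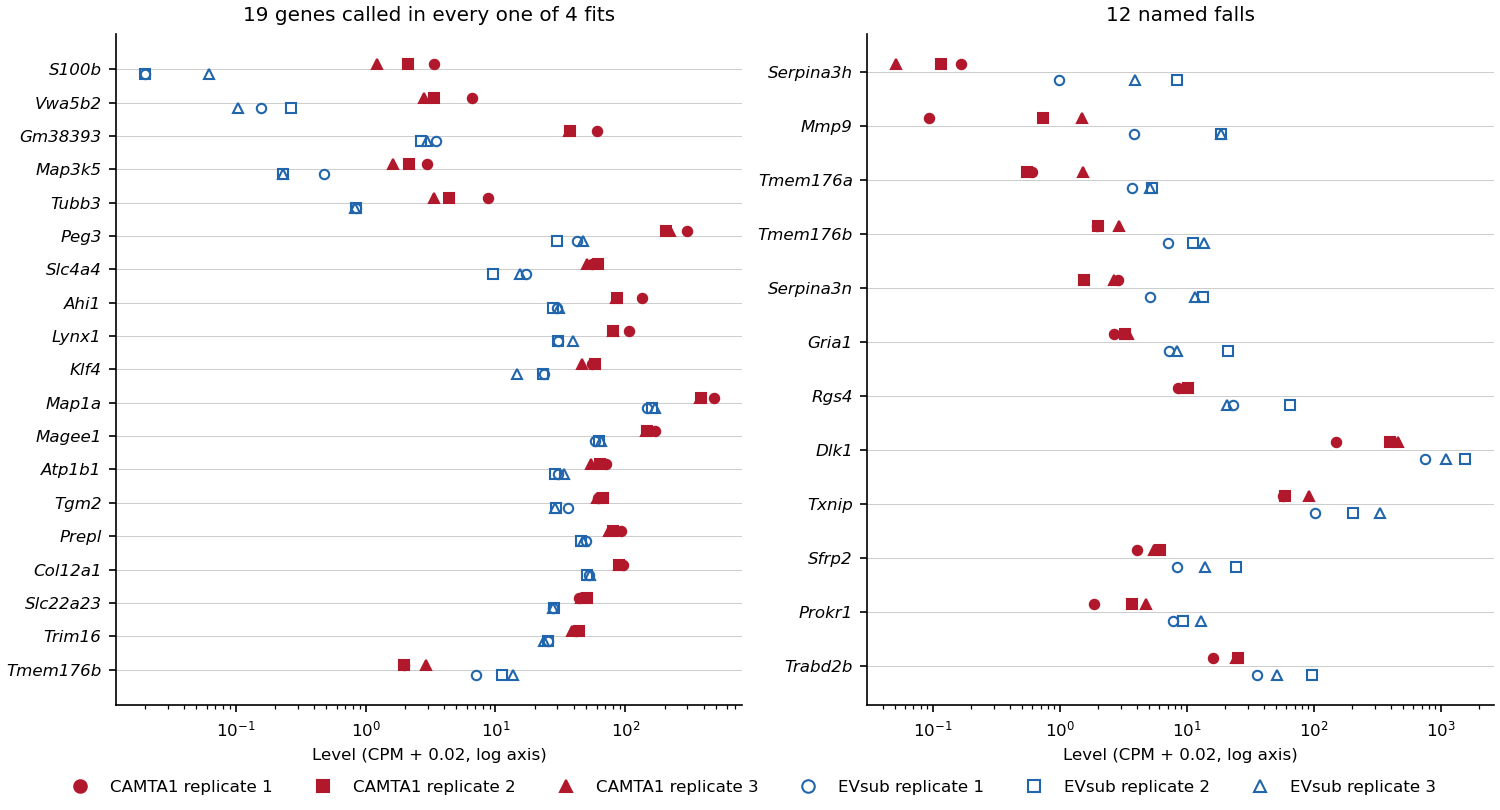
Levels in the 6 libraries (CPM with 0.02 added, log axis) of 19 of the 20 genes called in all 4 fits (left) and of the 12 named falls (right), with filled red symbols for CAMTA1 and open blue symbols for EVsub. The groups are apart for every gene shown, and among the falls EVsub replicate 1, the open circle, is the control library closest to CAMTA1 for all genes except Rgs4.

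Several other large falls follow. Serpina3h, annotated as a transcribed pseudogene of the Serpina3 protease inhibitor genes, had 0.1442, 0.09519 and 0.03092 CPM in CAMTA1 and 0.9565, 8.334 and 3.847 CPM in EVsub (log2 fold change -5.59, SE 0.71, edgeR quasi-likelihood adjusted p = 7.31e-05). Serpina3g, Serpina3i and Serpina3n of the same cluster on chromosome 12 were called lower too, and since these paralogs resemble one another their reads may have been divided among them. Serpina3n had 2.849, 1.523 and 2.628 CPM against 5.056, 13.32 and 11.41 CPM. In each of the Serpina3 genes EVsub replicate 1 was the lowest control library. Mmp9, a gelatinase, had 0.07212, 0.7139 and 1.453 CPM in CAMTA1 and 3.826, 18.59 and 18.3 CPM in EVsub (log2 fold change -4.13, SE 0.59, edgeR quasi-likelihood adjusted p = 0.000437). The groups of Mmp9 did not overlap, and all 6 fits without a library called it.

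Gria1, a glutamate receptor subunit, had 2.632, 3.189 and 3.37 CPM in CAMTA1 and 7.106, 20.8 and 8.243 CPM in EVsub. Rgs4, which shortens signalling by G proteins, had 8.402, 10.09 and 9.369 CPM against 22.96, 65 and 20.5 CPM. In both genes EVsub replicate 2 was by far the highest library. Rgs4 was not called without it (edgeR adjusted p = 0.192), nor without CAMTA1 replicate 1 or 2 (0.0798 and 0.065). Gria1 was called in all 6 fits without a library. Trabd2b, a metalloprotease that acts on Wnt proteins, had 15.9, 24.89 and 24.18 CPM against 35.67, 95.48 and 50.68 CPM. It too was called in all 6 of these fits. Sfrp2, a secreted Wnt antagonist, had 4.039, 6.044 and 5.504 CPM against 8.29, 24.25 and 13.86 CPM, with an edgeR adjusted p of 0.08 without CAMTA1 replicate 1 and 0.14 without EVsub replicate 2. Prokr1, a receptor for prokineticins, had 1.839, 3.665 and 4.731 CPM against 7.698, 9.224 and 12.81 CPM, and its edgeR adjusted p was 0.0549 without CAMTA1 replicate 1. Txnip, which binds thioredoxin and limits glucose uptake, had 56.33, 58.78 and 90.66 CPM against 100.5, 200.8 and 331.8 CPM. Its call ended without CAMTA1 replicate 1 or 2 or without EVsub replicate 2 or 3 (edgeR adjusted p between 0.108 and 0.148).

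Other large rises were outside the 20 genes above. Nr4a1, an orphan nuclear receptor induced within minutes of many signals, had 25.13, 119.7 and 107.1 CPM in CAMTA1 and 16.67, 9.082 and 20.25 CPM in EVsub. CAMTA1 replicate 1 lay just above the control range and the other CAMTA1 libraries far above it, and the log2 fold change of 2.46 (SE 0.41, edgeR quasi-likelihood adjusted p = 0.00252) was called in all 6 fits without a library. Thbs1, which encodes the matrix glycoprotein thrombospondin 1, showed the same order with 1427, 3428 and 3004 CPM against 998.9, 513.1 and 927.1 CPM (log2 fold change 1.69, SE 0.31). It had an edgeR adjusted p of 0.00496, and 0.0525 without EVsub replicate 2. Dock8, an exchange factor for Cdc42, had 60.51, 33.74 and 21.52 CPM against 15.21, 2.778 and 4.692 CPM, and here EVsub replicate 1 was the high control library. Rarb, a retinoic acid receptor gene, had 5.121, 5.33 and 3.927 CPM against 1.868, 0.6411 and 0.8031 CPM (log2 fold change 2.13, SE 0.32). Nap1l2, an X-linked nucleosome assembly gene of neurons, had 6.779, 4.474 and 3.865 CPM against 1.549, 0.8191 and 0.5072 CPM (log2 fold change 2.40, SE 0.35). For both the groups were separate and every left-out library kept the call. The other named rises were Klra4 (a lectin-like receptor of natural killer cells), Inmt (a methyltransferase) and Calcb (a calcitonin gene-related peptide), with log2 fold changes of 2.67, 2.15 and 2.52. Klra4 had 1.184, 0.1425 and 0.2959 CPM in EVsub and Calcb 2.551, 0.1425 and 0.5495 CPM. Without EVsub replicate 1, the highest control library of both, their log2 fold changes were 3.92 and 4.15. Calcb was not called with DESeq2 (DESeq2 adjusted p = 0.0884) or without CAMTA1 replicate 1 or 2 or EVsub replicate 2 or 3 (edgeR adjusted p between 0.103 and 0.144).

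The promoters of the 3 largest named rises found in the RefSeq table are printed because CG-1 domains are described as binding CGCG. The motif searched was CGCG, which reads the same on both strands, together with ACGCGT, which contains it. CGCG occurred in 38.0% of all 32851 promoters of 300 bases in that table, and ACGCGT in 1.86%. Each sequence below is from RefSeq on GRCm38.p6, 5′ to 3′ on the strand of the gene, with CGCG in capitals.
Vwa5b2, chr16:20589332-20589631, plus strand: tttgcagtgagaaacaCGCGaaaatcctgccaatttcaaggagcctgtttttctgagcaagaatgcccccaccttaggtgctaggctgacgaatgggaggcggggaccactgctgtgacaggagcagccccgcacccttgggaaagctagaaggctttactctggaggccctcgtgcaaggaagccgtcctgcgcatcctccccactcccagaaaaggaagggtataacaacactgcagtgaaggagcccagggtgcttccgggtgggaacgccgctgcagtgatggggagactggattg
Tubb3, chr8:123411303-123411602, plus strand: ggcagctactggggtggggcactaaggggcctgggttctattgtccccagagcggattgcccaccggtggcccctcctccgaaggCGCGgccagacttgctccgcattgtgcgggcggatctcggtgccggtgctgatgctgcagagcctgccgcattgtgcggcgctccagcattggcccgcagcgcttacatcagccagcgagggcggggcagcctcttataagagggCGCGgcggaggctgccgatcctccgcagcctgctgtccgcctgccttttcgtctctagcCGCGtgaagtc
Klra4, chr6:130067222-130067521, minus strand: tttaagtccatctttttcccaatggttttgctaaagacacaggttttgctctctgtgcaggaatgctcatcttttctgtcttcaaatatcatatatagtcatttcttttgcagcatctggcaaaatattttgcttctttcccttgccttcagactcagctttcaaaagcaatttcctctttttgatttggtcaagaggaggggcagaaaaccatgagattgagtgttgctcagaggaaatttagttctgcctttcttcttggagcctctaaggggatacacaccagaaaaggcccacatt
The Vwa5b2 promoter held CGCG once, that of Tubb3 3 times and that of Klra4 not at all, and none held ACGCGT. Shares of promoters with the motif among the called genes are not given, and whether they differ from other genes was not tested. A promoter was in the table for 136 of the 185 genes called higher (73.5%) and 93 of the 128 called lower (72.7%). Over all tested genes the share was 71.0%, so part of each set could not be read.

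Some called genes lay within 100000 bp of one another, and how often this holds for other sets of genes was not tested. Besides the Serpina3 genes and Tmem176a with Tmem176b, which may share reads, Nr4a1 and Krt80 on chromosome 15 both rose. Of 20 such pairs 18 were called in the same direction, and Ripk3 with Khnyn and Filip1l with Cmss1 were called higher and lower in that order. Ly6a with Ly6c1 on the same chromosome and Dock8 with Kank1 on chromosome 19 were further pairs that rose, and Ly6a and Ly6c1 are paralogs. Lhx8 and its neighbour AI606473 on chromosome 3 were called lower, and these pairs were chosen after their values were seen.

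Gene groups were then counted on lists of pathways, in the edgeR fit of all 24 libraries with a mean of at least 5 counts unless another setting is named. Over all 14361 tested genes 2612 had an unadjusted p under 0.05, 6596 had a positive and 7732 a negative log2 fold change. The list of immediate early and AP-1 genes, which answer growth signals within an hour, had the most called members. Of 25 tested genes 5 were called higher and 0 lower, and the median log2 fold change was 0.48. They were Nr4a1, Nr4a3, Klf4, Dusp4 and Spry4. The number was 2 without CAMTA1 replicate 2, 2 without EVsub replicate 2 and 3 without EVsub replicate 3, it was 7 with DESeq2, 3 with at least 10 counts in every library and 8 without a filter on low counts, and Klf4 and Nr4a1 were called in all 6 fits without a library. The median was 0.29 with at least 10 counts in every library. Nr4a3, a relative of Nr4a1, had 1.082, 4.093 and 3.618 CPM against 0.7743, 0.1425 and 0.9299 CPM, and was not called without CAMTA1 replicate 2 or EVsub replicate 2 (edgeR adjusted p = 0.0916 and 0.12). Dusp4, a phosphatase of MAP kinases, had 79.3, 55.16 and 35.56 CPM against 30.34, 27.46 and 19.7 CPM. Its call ended without CAMTA1 replicate 1 or 2 or EVsub replicate 2 or 3 (edgeR adjusted p between 0.0788 and 0.197). The classical members Fos, Egr1 and Junb were not called, at log2 fold changes of 1.18, 0.20 and 0.05, and their CAMTA1 and EVsub libraries overlapped for Egr1 and Junb.

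YAP and TAZ are coactivators that drive growth genes together with TEAD factors, and TAZ is the partner of CAMTA1 in the fusion. Of 21 tested YAP/TAZ targets 1 was called higher and 0 lower, with a median log2 fold change of 0.18. A positive log2 fold change was found for 17 and a negative one for 4, and 6 were higher and 1 lower at an unadjusted p under 0.05 (edgeR quasi-likelihood). Over all 14361 tested genes 1154 were higher and 1458 lower at that p. The targets summed to 4892, 4698 and 4318 CPM in CAMTA1 and to 4239, 4101 and 3623 CPM in EVsub, without overlap. The number called higher was 3 with DESeq2, 3 without TAZ4SA and YAP5SA in the fit, 4 without a filter, 4 without EVsub replicate 1, and 0 without CAMTA1 replicate 2 or EVsub replicate 2. The called target was Crim1, a membrane protein that binds bone morphogenetic proteins, with 262.5, 254.8 and 181.6 CPM against 167.7, 88 and 86.27 CPM. Its edgeR adjusted p was 0.0513 without CAMTA1 replicate 2 and 0.0896 without EVsub replicate 2. Among the targets most used as readouts, Ccn2 had 294, 249.1 and 159.2 CPM against 143.4, 129.2 and 37.7 CPM, and was not called at an edgeR adjusted p of 0.106. Ankrd1 had 119.6, 102.8 and 85.28 CPM against 75.84, 39.28 and 44.51 CPM and was not called at an edgeR adjusted p of 0.107. The groups did not overlap for either gene, while for Ccn1, with 419.9, 202 and 167.3 CPM against 223.5, 203.4 and 57.57 CPM, they did.

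The list of CAMTA and calmodulin machinery had 23 tested genes, of which Camta1 alone was called. DESeq2 called 3 higher and 1 lower, edgeR without TAZ4SA and YAP5SA or without a filter 2 higher and 1 lower, and edgeR with at least 10 counts in every library, without EVsub replicate 1 or without EVsub replicate 2 called 2 higher. Camta2, the other CAMTA gene, had 32.56, 31.51 and 33.12 CPM against 31.2, 36.58 and 36.1 CPM. Calm2 and Calm3, which encode calmodulin, had log2 fold changes of 0.33 and 0.30 and were not called by edgeR's quasi-likelihood test (adjusted p = 0.0771 and 0.217). Of 4 tested genes tied to CAMTA proteins by earlier work, among them Hdac5, Nppb and Fbxl4, 0 were called by edgeR or DESeq2 at a median of -0.06, and 0 had an unadjusted p under 0.05. The subunits of ATAC, a histone acetyltransferase complex, gave 0 calls of 11 by edgeR and by DESeq2 with a median of -0.09, and 1 had an unadjusted p under 0.05.

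Of 19 tested collagen genes 1 was called higher and 3 lower, with a median of -0.36 that became -0.23 without CAMTA1 replicate 1 and 0.03 without EVsub replicate 2. Without CAMTA1 replicate 1 or 2 or EVsub replicate 2 Col12a1 was the single collagen gene called, and without EVsub replicate 1 there were 2 called higher and 6 lower. Col6a2 had 260, 507.1 and 616.7 CPM in CAMTA1 and 578.6, 1745 and 831.1 CPM in EVsub, and Col5a3 had 3.534, 4.854 and 7.235 CPM against 8.199, 21.12 and 13.02 CPM. Both were highest in EVsub replicate 2, and without it their edgeR adjusted p was 0.358 and 0.111. Without CAMTA1 replicate 1 it was 0.179 and 0.0642, and without CAMTA1 replicate 2 it was 0.0949 and 0.0549. The third, Col15a1, was counted 0, 1 and 2 times in CAMTA1 and 1, 47 and 3 times in EVsub, so that its count came mostly from EVsub replicate 2. It was not called without that library (edgeR adjusted p = 0.72) or without CAMTA1 replicate 1, 2 or 3 (0.178, 0.117 and 0.0721).

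Of 27 tested matrix glycoprotein and proteoglycan genes 1 was called higher, Thbs1, and 2 lower, Postn and Fmod, with a median of -0.52 (-0.21 without CAMTA1 replicate 1, -0.17 without EVsub replicate 2 and -0.11 without EVsub replicate 3). Without EVsub replicate 1, and likewise without a filter, 9 were called lower, and without CAMTA1 replicate 1 or 2 or EVsub replicate 2 it was 0. Postn, which encodes periostin, had 90.55, 85.24 and 169.8 CPM in CAMTA1 and 147.3, 840.8 and 549 CPM in EVsub. CAMTA1 replicate 3 and EVsub replicate 1 crossed, so the groups overlapped. Its log2 fold change was -2.15 (SE 0.42, edgeR quasi-likelihood adjusted p = 0.00775), and the call ended without CAMTA1 replicate 1 (adjusted p = 0.0545), CAMTA1 replicate 2 (0.0629) or EVsub replicate 2 (0.091). Among 20 tested matrix proteases and inhibitors 0 were called higher and 2 lower, Mmp9 and Adamts2, with a median of -0.35 (-0.14 without EVsub replicate 3), and 4 were called lower with DESeq2 and without EVsub replicate 1. Adamts2 and Fmod were not called without CAMTA1 replicate 1 or 2 or EVsub replicate 2 or 3 (edgeR adjusted p between 0.101 and 0.202). Integrins had 1 rise (Itga6) and 1 fall (Itga11, which binds collagen) of 16 tested, at a median of 0.21 (0.11 without EVsub replicate 2). Neither was called without CAMTA1 replicate 1 (edgeR adjusted p = 0.241 and 0.12), CAMTA1 replicate 2 (0.113 and 0.1) or EVsub replicate 2 (0.228 and 0.181), nor Itga6 without EVsub replicate 3 (0.141).

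Contractile and cytoskeletal genes had 2 rises and 0 falls of 20 tested, with a median of 0.35, and 17 of the 20 had a positive log2 fold change. There were 5 rises with DESeq2, 4 without EVsub replicate 1, and 4 without TAZ4SA and YAP5SA in the fit. The called members were Vcl (vinculin), with 309.2, 323.2 and 305.5 CPM against 235.3, 196.2 and 216.1 CPM, and Cnn2 (calponin 2), with 655, 746.7 and 640.7 CPM against 540.4, 456.6 and 498.5 CPM. The groups were separate for both, but neither was called without CAMTA1 replicate 1 or 2 or without EVsub replicate 2 or 3, with edgeR adjusted p-values between 0.0627 and 0.211. Of 28 tested genes of the TGF-beta and BMP pathway 3 were called higher and 0 lower, at a median of 0.02, and without EVsub replicate 1 there were 3 higher and 2 lower. They were Inhba (a subunit of activin), Grem1 (which binds BMPs) and Skil (which represses SMAD proteins), of which Grem1 and Skil had log2 fold changes of 1.38 and 0.87. None of the 3 was called without CAMTA1 replicate 1 or 2 or EVsub replicate 2 (edgeR adjusted p between 0.0712 and 0.262), nor Inhba and Grem1 without EVsub replicate 3 (0.13 and 0.104).

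**Figure D4:**
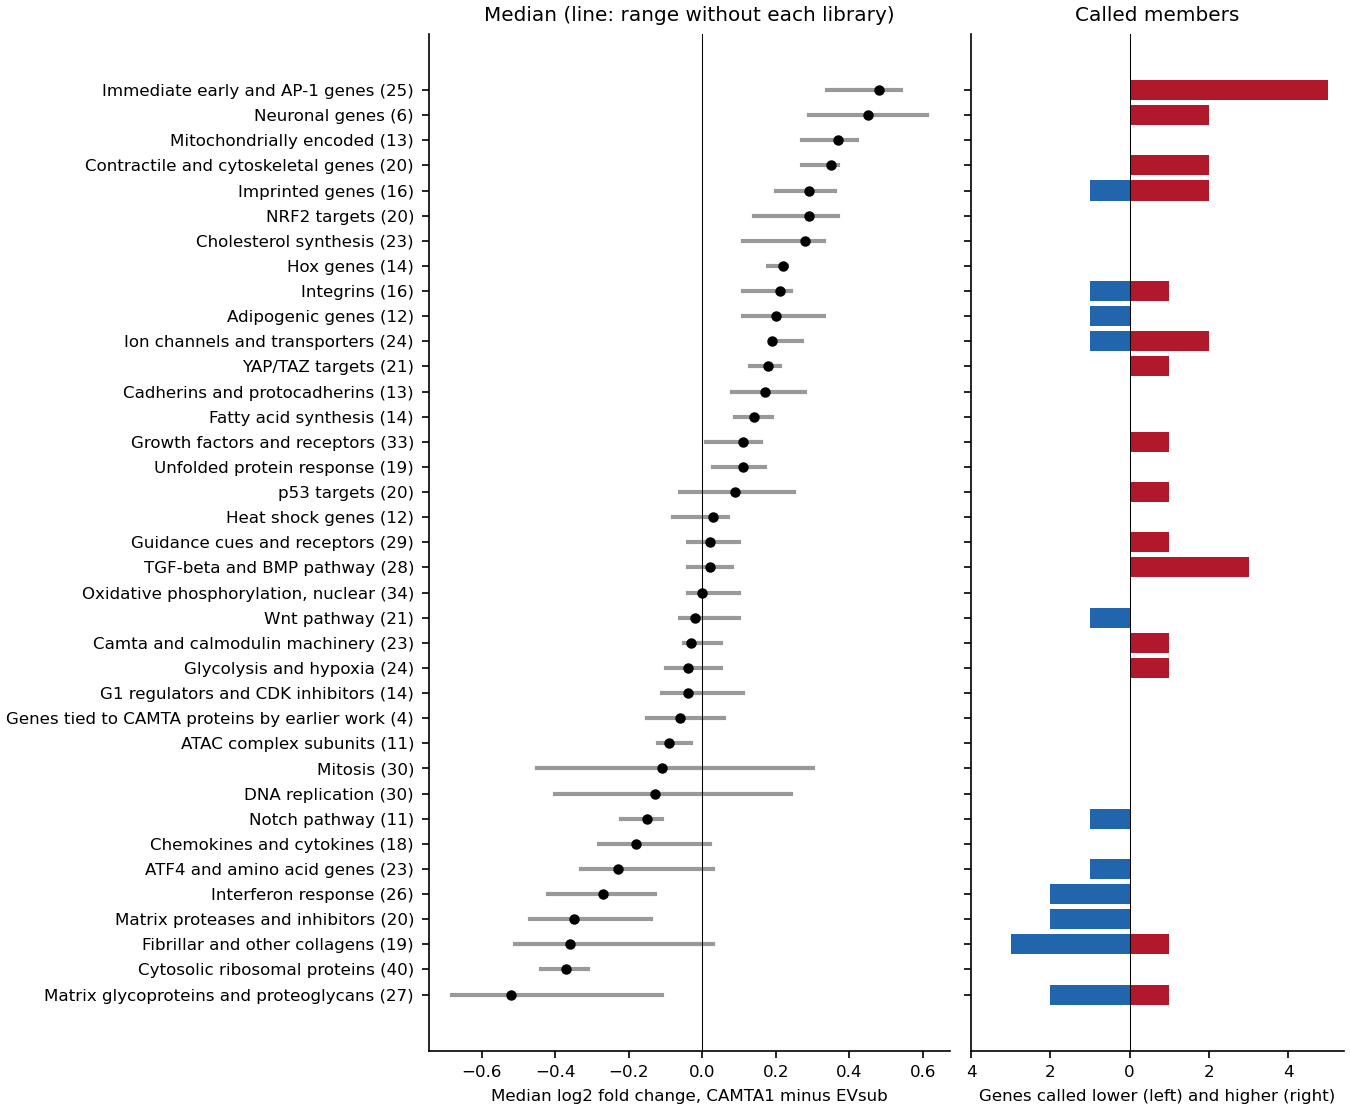
For each list of genes, with the number tested in brackets, the left panel gives the median log2 fold change of CAMTA1 minus EVsub (point) and its range when each of the 6 libraries was left out (line), and the right panel the number of members called lower (blue, left) and higher (red, right). Among the lists of pathways, in the fit of all 24 libraries, immediate early and AP-1 genes had the highest median, 0.48. Matrix glycoproteins and proteoglycans had the lowest, -0.52. The medians of the mitosis and DNA replication lists crossed 0 with the library left out.

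Cell cycle genes did not separate the groups. Of 30 tested mitosis genes and 30 tested DNA replication genes 0 were called by edgeR in either direction, 0 had an unadjusted p under 0.05, and DESeq2 called 0 on either list. Mitosis genes summed to 4095, 3114 and 2796 CPM in CAMTA1 and to 3540, 4965 and 1582 CPM in EVsub, against 600.4, 1294 and 639.2 CPM in the confluent EV. Within EVsub the sum thus differed several times over between replicates 2 and 3. The median log2 fold change of the list was -0.11, and it was -0.29 without CAMTA1 replicate 1, -0.01 without CAMTA1 replicate 3, 0.30 without EVsub replicate 2 and -0.45 without EVsub replicate 3. The part of growth state in the called genes was not tested.

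Genes that differ between sub-confluent and confluent empty vector cells are of interest here for the same reason. EVsub differed from EV at 22.1% of tested genes, and this comparison shares the EVsub libraries with the comparison of CAMTA1, so values are given side by side only. Postn had a log2 fold change of -2.15 in CAMTA1 against EVsub and -2.55 in EVsub against EV. Mmp9 had -4.13 and -0.51, Dlk1 had -1.76 and -0.28, and Ptgs2 had 1.89 and 2.62. Peg3 had 2.60 and -0.28, and Gm38393 had 3.89 and 1.24.

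A few lists had mostly 1 sign without a called member. The 40 tested cytosolic ribosomal protein genes gave 0 calls by edgeR and 0 by DESeq2, but 9 were called lower by edgeR without TAZ4SA and YAP5SA in the fit and 3 with CAMTA1, EVsub, EV and TAZ-CAMTA1 in it. With all 24 libraries 39 of the 40 had a negative log2 fold change, 19 had an unadjusted p under 0.05, and the median was -0.37. Their summed level was 25788, 29846 and 29908 CPM in CAMTA1 and 32930, 37698 and 40084 CPM in EVsub, so that the groups did not overlap. The 13 genes encoded in the mitochondrial genome all had a positive log2 fold change with a median of 0.37, 5 had an unadjusted p under 0.05, and 0 were called by edgeR. DESeq2 and edgeR without TAZ4SA and YAP5SA each called 2, and 1 was called without a filter, without EVsub replicate 1, and with CAMTA1, EVsub, EV and TAZ-CAMTA1 in the fit. The 13 genes summed to 36419, 34491 and 31994 CPM in CAMTA1 against 28817, 27082 and 29400 CPM in EVsub. RNA quality was not tested as a source of either shift. Cholesterol synthesis genes had 22 of 23 positive values, a median of 0.28 (0.11 without EVsub replicate 2) and 0 calls by edgeR, with 3 at an unadjusted p under 0.05, which is no larger a share than over all tested genes. DESeq2 called 0 of them, and edgeR without a filter called 1.

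Interferon response genes had 0 rises and 2 falls of 26 tested, at a median of -0.27 (-0.18 without CAMTA1 replicate 2, -0.42 without CAMTA1 replicate 3 and -0.13 without EVsub replicate 3). Without EVsub replicate 1 there were 1 rise and 3 falls, and with DESeq2 1 rise and 1 fall. Gbp2, a guanylate-binding protein, had 6.347, 9.709 and 11.07 CPM against 15.3, 16.06 and 20.08 CPM and was not called without CAMTA1 replicate 1 or 2 or without EVsub replicate 3 (edgeR adjusted p = 0.0975, 0.0508 and 0.0619). Mx1 was counted 0 times in the CAMTA1 libraries and 2, 5 and 5 times in EVsub, too few to give a size, and it was called in the fits without a library only when EVsub replicate 1 was left out (edgeR adjusted p = 0.0172, otherwise 0.0673 to 0.118). The remaining lists held at most 1 called member each. These members were Notch1, Atf5 and, again, Sfrp2 and Dlk1, all lower, and Vegfa, Pmaip1 and Sema5a, all higher. Some of these lists had more calls without EVsub replicate 1. There were then 4 falls among chemokines and cytokines, and 1 rise and 3 falls among growth factors and receptors. Guidance cues and receptors had 2 rises and 3 falls, and NRF2 targets 2 rises. Notch1, Atf5, Vegfa, Pmaip1 and Sema5a were not called without CAMTA1 replicate 1 or 2 or EVsub replicate 2 (edgeR adjusted p between 0.0862 and 0.57). Nor were Notch1, Vegfa and Sema5a without CAMTA1 replicate 3 (0.0602 to 0.0751) or Atf5 and Pmaip1 without EVsub replicate 3 (0.102 and 0.0973).

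How the CAMTA1 effect relates to that of its fusion was tested as a difference of effects. The effect of CAMTA1 against EVsub differed from that of TAZ-CAMTA1 against EV at 7.64% of tested genes. Among the 185 genes called higher in CAMTA1 it differed at 58, of which 42 had the larger value in CAMTA1, and among the 128 called lower it differed at 37, all with the stronger fall in CAMTA1. A larger effect in CAMTA1 is favoured here by the choice of genes called in CAMTA1, since that effect is part of the difference. Peg3 was 2.61 higher in this difference on the log2 scale (SE 0.26, edgeR quasi-likelihood adjusted p = 2.65e-06), having 48.18 CPM on average in TAZ-CAMTA1 and 48.38 CPM in EV. Magee1 differed by 1.99 (SE 0.15, edgeR adjusted p = 7.94e-08). Magee1 was called in opposite directions, with a log2 fold change of 1.30 for CAMTA1 and -0.69 for TAZ-CAMTA1.

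Klf4 and Col12a1 changed more with the fusion. Klf4 had a log2 fold change of 1.37 with CAMTA1 and 2.26 with TAZ-CAMTA1, and Col12a1 had 0.80 and 1.44, with differences of -0.89 (SE 0.23, edgeR adjusted p = 0.02) and -0.64 (SE 0.18, edgeR adjusted p = 0.0314). For Tubb3 the values were 2.74 and 1.24, and the difference missed the threshold (SE 0.52, edgeR adjusted p = 0.0834). Cdsn, a protein of cell adhesion in the epidermis, was lower with CAMTA1 (log2 fold change -1.33) and higher with TAZ-CAMTA1 (2.92). Slc30a1, a zinc exporter, was the mirror image at 1.32 and -2.22. The call of Cdsn for CAMTA1 ended without CAMTA1 replicate 1 or EVsub replicate 2 (edgeR adjusted p = 0.0518 and 0.0827), and that of Slc30a1 without CAMTA1 replicate 2 or 3 or EVsub replicate 2 or 3 (between 0.0674 and 0.233).

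Counted over genes, 79 of the 185 rises (42.7%) were also called higher for TAZ-CAMTA1 against EV, where 12.5% of all tested genes were called higher, and 7 were called lower. Of the 128 falls 41 (32.0%) were also called lower there, against 8.98% of all tested genes, and 7 were called higher. These shared genes are 4.39% of the 1799 rises and 3.18% of the 1289 falls of TAZ-CAMTA1, which called 21.5% of tested genes in either direction. YAP-TFE3 called 15.3%, and shared 97 rises (52.4%, against 10.6% of all tested genes, and 6.37% of its 1523) and 32 falls (25%, against 4.74%, and 4.71% of its 680), with 7 rises and 1 fall called in the opposite direction. TAZ4SA called 57.5%, and shared 107 rises (57.8%, against 31.1% of all tested genes, and 2.40% of its 4465) and 78 falls (60.9%, against 26.4%, and 2.06% of its 3788), with 32 rises and 23 falls in the opposite direction. YAP5SA called 71.2%, and shared 107 rises (57.8%, against 36.3% of all tested genes, and 2.05% of its 5208) and 89 falls (69.5%, against 34.9%, and 1.78% of its 5012), with 44 rises and 22 falls in the opposite direction. TFE3 called 3.38%, and shared 11 rises (5.95%, against 2.36% of all tested genes, and 3.24% of its 339) and 8 falls (6.25%, against 1.02%, and 5.48% of its 146), with 6 rises and 3 falls in the opposite direction. None of these comparisons shares a library with that of CAMTA1 against EVsub, but all of them were of confluent cells except as stated for TAZ-CAMTA1. They share the EV libraries with one another. All comparisons also came from the same fit and share its estimate of the spread of each gene, so their calls are not independent. How far this raises the shares was not tested.

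Set against all 21 other libraries of the series, the 3 CAMTA1 libraries were the highest at 54 of the 185 genes called higher and the lowest at 35 of the 128 called lower. Over all tested genes they were the highest at 193 and the lowest at 216. Among the 20 genes called in all 4 fits, 13 had their highest levels in CAMTA1 in this sense, including Peg3, Gm38393, Tubb3, Map1a, Magee1 and S100b. Nr4a1 had its highest mean in CAMTA1, but CAMTA1 replicate 1 lay within the range of the TAZ4SA libraries and below those of YAP5SA.

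**Figure D5:**
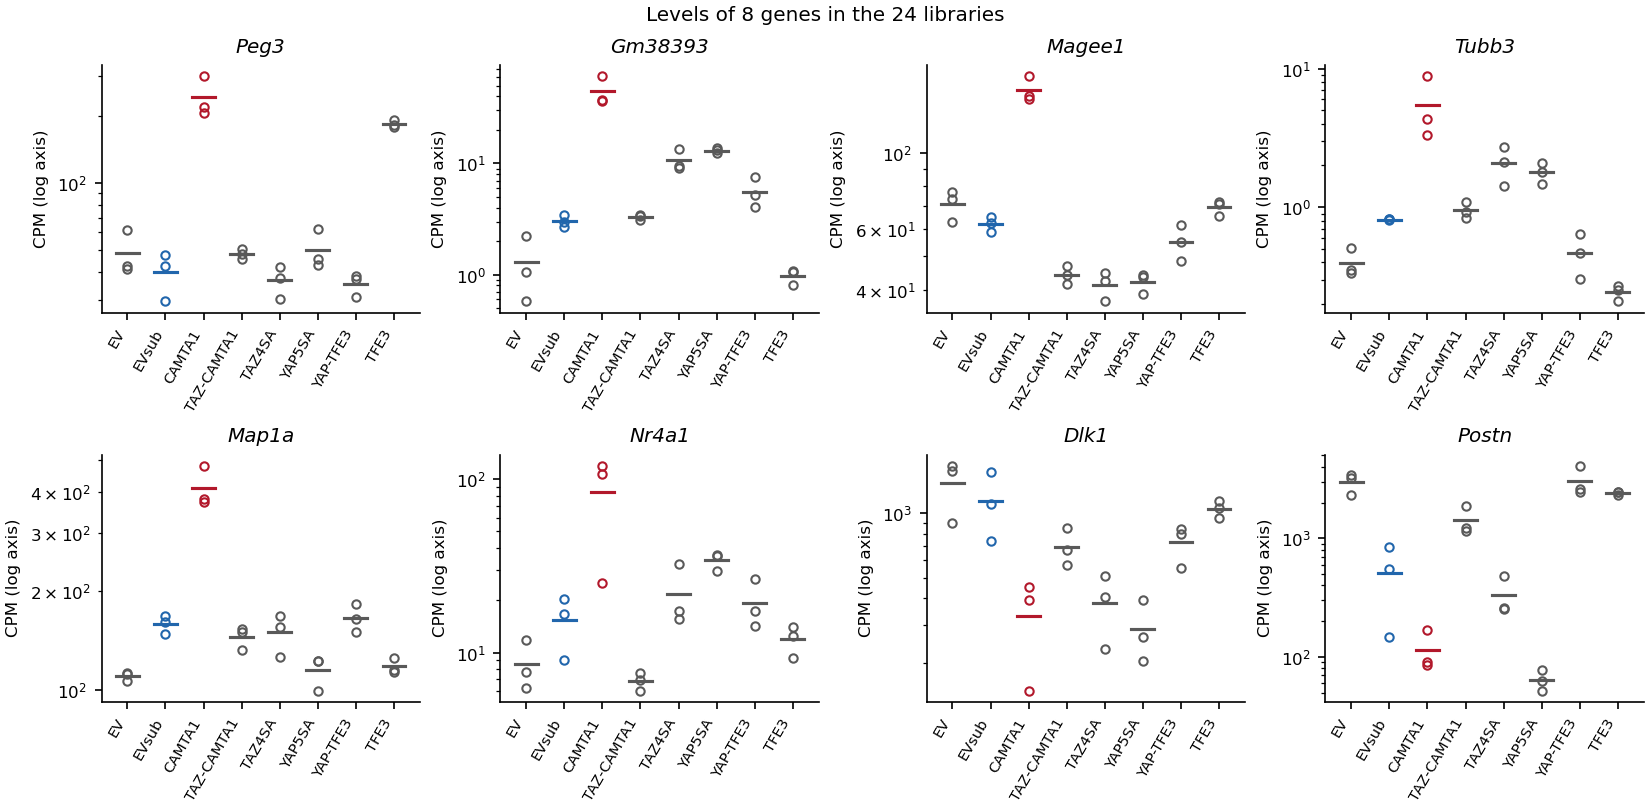
Levels of 8 genes (CPM, log axis) in the 24 libraries, with a circle for each library and a bar for the mean of each group; CAMTA1 is red, EVsub blue and the other groups grey. Peg3, Gm38393, Magee1, Tubb3 and Map1a are higher in the 3 CAMTA1 libraries than in any other library, whereas Postn and Dlk1 are lower in CAMTA1 than in both empty vector groups on average and lower still on average in YAP5SA.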

How the data were processed

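The 24 RNA-Seq libraries of NIH 3T3 cells, 3 per group, were fitted together, with groups and replicate numbers from the labels. The authors deposited raw counts per Ensembl gene, without normalization, made from 75 bp paired-end stranded poly(A) libraries with bcbio-nextgen on mm10. The paper names Hisat2 as the aligner and Salmon with tximport for its own gene-level counts; which program made the deposited whole-number counts, and its use of strand, are not given in the sources used here. Of 39017 identifiers 37607 were matched to GENCODE M21. Counts were scaled by TMM and tested with edgeR 4.0.16 (R 4.3.3; quasi-likelihood, 2-sided, all 24 libraries in 1 fit with 1 coefficient per group, mean of at least 5 counts, Benjamini-Hochberg). Alternatives were DESeq2 1.42.0 and its size factors, other filters, other sets of libraries in the fit, each CAMTA1 or EVsub library left out, and the replicate number as a block. The script was tested on simulated data.

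Library totals ranged from 19823573 to 30132586 in the 6 libraries compared. Intervals and floors (3 counts) cover counting error only. The 78 genes considered for naming, not all of which are printed, were Camta1, the 12 largest rises and falls among called genes without overlap and averaging 50 counts or more, the 20 genes called in all 4 fits, up to 4 called members per list, and the 5 largest rises and falls shared with or opposite to TAZ-CAMTA1. The members and the lists were chosen with earlier results of these data known. Promoters came from RefSeq (GRCm38.p6). Results of a few genes are not reported here.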

Additional observations from a re-analysis of the deposited data

How the results depend on the processing

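The count of 313 genes called for CAMTA1 against EVsub was 636 with DESeq2, 674 without a filter on low counts, 669 without TAZ4SA and YAP5SA in the fit, 207 with CAMTA1, EVsub, EV and TAZ-CAMTA1 alone in the fit, 22 with the 2 groups alone, and 151 with a change of at least 2-fold. Leaving out 1 library gave from 72 (without EVsub replicate 2) to 710 (without EVsub replicate 1). The other settings, DESeq2 size factors (318) and the other filters (247 and 327), stayed within 1.5 times. The cause of these differences was not tested, except that a larger fold by construction keeps fewer genes. The 1097 genes called for CAMTA1 effect minus TAZ-CAMTA1 effect became 624 at a difference of at least 2-fold, and from 784 (without EVsub replicate 2) to 1567 (without EVsub replicate 3) with 1 library left out.

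With the replicate number as a block 301 genes were called, 176 higher and 125 lower. Of the 78 named genes 5 were not called with it: Cnn2, Inhba, Notch1, Sema5a and Slc30a1. Same-numbered libraries correlated at 0.252, -0.00246 and 0.41 in their deviations from the group means, and CAMTA1 replicate 2 correlated best with EVsub replicate 3 (0.0291), so the numbers were not taken to pair the libraries. Of 1149 values of named genes under the alternatives 895 kept both direction and call, and 254 kept the direction without the call, 58 of the 78 genes with the 2 groups alone. Genes near 3 counts per library, such as Mx1 and Col15a1, are limited by depth.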

Other observations

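Several genes outside the naming rule, chosen after their values were seen, were also called in every fit without a library. Ica1, an autoantigen of islet cells that binds secretory vesicles, had 1.803, 1.951 and 1.484 CPM in CAMTA1 and 0.7743, 0.2493 and 0.3382 CPM in EVsub (log2 fold change 1.96, edgeR quasi-likelihood adjusted p = 0.00367). Its groups did not overlap. Trem2, a receptor of microglia and macrophages, had 0.4327, 0.2856 and 0.8348 CPM against 1.594, 3.597 and 3.128 CPM (log2 fold change -2.36, edgeR quasi-likelihood adjusted p = 0.00292). Lhx8, a homeobox gene of forebrain neurons, was counted 1, 1 and 0 times in CAMTA1 and 7, 14 and 12 times in EVsub, a ratio of 18.2 with a 95% counting interval from 4.64 to 156.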
